A study of Mus musculus with 8 samples.

Results

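The p53 gene Trp53 and 9 of its target genes (Mdm2, Ccng1, Trp53inp1, Sesn1, Zmat3, Phlda3, Btg2, Eda2r and Aen) were examined in RNA sequencing libraries of J774A.1 cells, a mouse macrophage line. The 10 genes were taken by symbol from a table of 55487 genes, and all 10 passed the filter on low values (an average of 1 TPM or more over the libraries) that left 11796 genes for testing. Both groups received LPS, the endotoxin of Gram-negative bacteria that macrophages sense through TLR4, at 1 μg/mL. The LPS + UDCA group (n = 4 libraries) also received ursodeoxycholic acid (UDCA), a secondary bile acid, at 1 mM. The LPS group (n = 4 libraries) received no UDCA, and the sources do not say whether it received a solvent in its place. Both groups were harvested after 24 h. Cells without LPS were not analysed here, so each difference is between cells under LPS, and the cells are 1 transformed line. The sources do not say whether the 4 libraries of a group came from independent experiments, so p-values measure the spread between these libraries, which may be technical.

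p53 is a transcription factor that is held at low protein levels by MDM2, a ubiquitin ligase that is itself made from a p53 target gene. When p53 protein is stabilized, for example after DNA damage, it binds response elements near its target genes and raises their transcription, and those genes act in growth arrest, repair, metabolism, cell death and the shutdown of p53 itself. Because p53 is regulated largely at the level of the protein, its mRNA and the mRNA of its targets need not move together.

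With UDCA, Trp53 mRNA was slightly lower and 8 of the 9 target genes were higher. Among the targets, Trp53inp1 and Eda2r had the largest differences, in an order that depends on the pseudocount, Phlda3 and Mdm2 were about doubled, and Btg2 lay just under a 2-fold rise. Zmat3, Ccng1 and Aen rose by less, and Sesn1 did not pass the test. Differences were tested with limma on log2(TPM + 1) with Benjamini-Hochberg adjustment (FDR) over all 11796 genes. At an FDR under 0.05, 8 of the 10 genes were higher and 1 was lower with LPS + UDCA, where 40.2% of all genes tested were higher and 32.3% were lower. With a fold change of at least 2 on the log2(TPM + 1) scale in addition, 4 of the 10 were higher and 0 lower. Of all genes tested, 8.71% and 8.44% were. The added 1 TPM shrinks the differences of low genes, so a gene can miss this minimum with a TPM ratio above 2. The median log2 difference was 0.72 over the 10 genes and 0.082 over all genes tested. The 10 genes and the other lists below were chosen with earlier results of these data known. Counts and medians set beside those of all genes therefore describe the lists and do not test them. Libraries of bulk RNA give shares of the RNA of a culture, so fewer cells of a kind and less RNA per cell cannot be told apart.

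**Figure D1:**
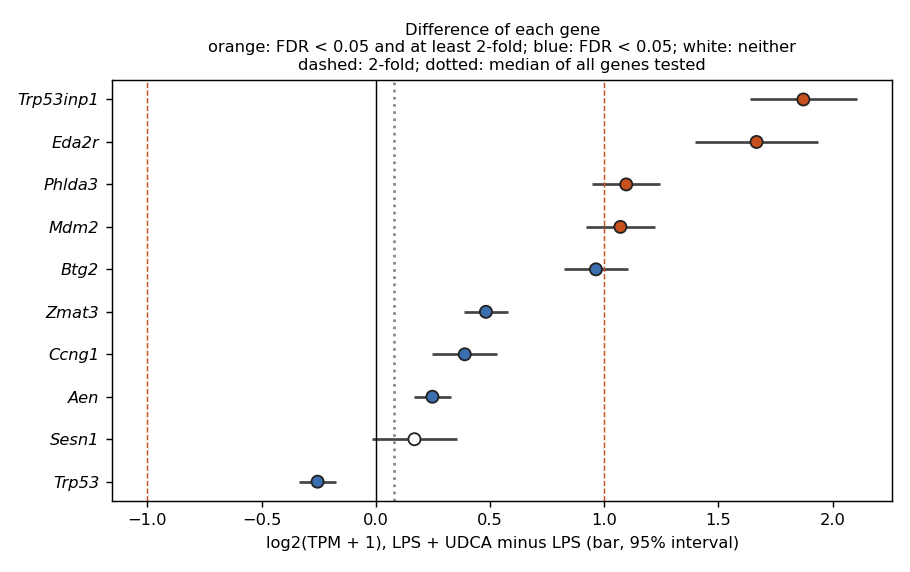
Difference in log2(TPM + 1) between LPS + UDCA and LPS for the 10 genes on the horizontal axis, with 95% intervals from limma (n = 4 libraries per group). Trp53 lies at -0.26, Sesn1 has an interval that includes 0, and the other 8 genes lie between 0.25 and 1.87, to the right of the dotted line at the median of all genes tested.

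Over the listed genes, the LPS libraries summed to between 973190.38 and 977485.17 TPM. The LPS + UDCA libraries summed to less, between 958918.43 and 962736.95 TPM. With every library rescaled to the same sum, the log2 difference of Trp53 was -0.23, against -0.26 in the main fit. Identical values were found in 0 of the 28 possible library pairs. Macrophage identity was checked with 10 marker genes, of which 9 had a mean of at least 1 TPM and Mrc1 did not. The summed level of these markers ran from 4240 to 4472.5 TPM in the LPS libraries and from 2081.2 to 2337.9 TPM with LPS + UDCA. Single markers went both ways, with 4 of the 9 higher and 5 lower at an FDR under 0.05 from limma. Fcgr1 (log2 difference 1.48), Adgre1 (1.27), Ptprc (0.47) and Spi1 (0.19) were higher, and Itgam (-2.91), Lyz2 (-2.19), Cd68 (-1.39), Csf1r (-1.35) and Cd14 (-0.39) were lower. Lists of 6 fibroblast, 6 epithelial and 6 T and B cell markers had 0 genes at a mean of 1 TPM, and their sums did not exceed 0.49 TPM in any library.

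The p53 response element consists of a pair of adjacent 10-base repeats. The element was looked for in RefSeq promoter windows of 300 bases on GRCm38.p6, from 250 bases before to 50 bases after each annotated start, to show which promoters carry letters close to it. The consensus reads the same on both strands, the repeats were searched without a spacer, and the stretch with the fewest mismatches was kept for each window. Windows were found for 8 of the 10 genes, all but Trp53inp1 and Zmat3. The closest stretches of Ccng1, Aen and Trp53 are shown with that of Cdkn1a, the gene of the cell cycle inhibitor p21 and the best known p53 target. Capitals mark the 4 middle bases of each repeat.
Ccng1: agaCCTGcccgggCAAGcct
Aen: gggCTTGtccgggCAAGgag
Trp53: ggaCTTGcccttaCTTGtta
Cdkn1a: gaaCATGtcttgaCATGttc

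The Ccng1 stretch, at chr11:40755462-40755481 on the minus strand, had 1 mismatch in 20 bases, as had that of Cdkn1a at chr17:29090928-29090947 on the plus strand. The Ccng1 mismatch lies in the middle bases of a repeat, and the Cdkn1a mismatch lies outside them. Of the 32851 windows of all genes, 29 (0.0883%) held a stretch with 1 mismatch or fewer. The Aen stretch, at chr7:78895937-78895956 on the plus strand, and the Trp53 stretch, at chr11:69580284-69580303 on the plus strand, had 3 mismatches each, which 6.29% of all windows reach. Sesn1 also had a stretch with 3 mismatches in 1 of its windows, Btg2 had 4 mismatches (reached by 30.2% of windows), Mdm2 and Phlda3 had 5 (76.6%) and Eda2r had 6 (98.5%). Of the stretches named here, only those of Cdkn1a, Aen and Trp53 matched at the middle bases of both repeats. A match is a description of letters, and a window without one holds no information on elements elsewhere in the gene, such as in an intron.

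Trp53 itself (ENSMUSG00000059552, chromosome 11 from 69580359 to 69591873 of GRCm38) was the most abundant of the 10 mRNAs under LPS. It was measured at 215.19, 200.92, 200.13 and 199.61 TPM in the LPS replicates (1 to 4, in that order here and for each gene) and at 174.3, 172.31, 169.15 and 167.02 TPM in those with UDCA. Every LPS + UDCA library was below every LPS library, and LPS replicate 1 stood above the other 3 of its group. Mean Trp53 fell from 204 ± 7.50 TPM (SD, n = 4) to 170.7 ± 3.24 TPM, a log2 difference of -0.26 with a standard error of 0.035 (FDR = 0.00013 from limma). Without LPS replicate 1 the difference was -0.23. The genome holds a pseudogene copy, Trp53-ps, and 10.2% of the 31-base words of its transcripts also occur in another gene. Trp53-ps was listed at no more than 0.07 TPM in any library.

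Over the 8 libraries, the tested genes whose log2(TPM + 1) followed that of Trp53 most closely were Mfsd10 (Pearson's r = 0.998), Eldr (r = 0.993) and Tle5 (r = 0.993). All 3 were lower with LPS + UDCA. The libraries of each treatment form a cluster, so such an r mainly restates the difference between the groups, and 2520 of the genes tested had an r above 0.9.

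Mdm2 and Ccng1 belong to the feedback that limits p53. Mdm2 (ENSMUSG00000020184, chromosome 10 from 117688875 to 117710758) encodes the ubiquitin ligase that marks p53 for degradation. Its level was 175.32, 161.1, 152.99 and 168.58 TPM in the LPS replicates and 309.02, 344, 353.79 and 381.84 TPM in the LPS + UDCA replicates. The groups were far apart, and the LPS + UDCA libraries spread more widely than the LPS libraries. Mean Mdm2 went from 165 ± 9.62 TPM (SD, n = 4) to 347 ± 30.1 TPM, a log2 difference of 1.07 (standard error 0.067, FDR = 8.0e-07 from limma). It came just short of 2-fold under median-of-ratios scaling (0.99) and under centring of each library on its median gene (0.996).

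Within each library, Mdm2 changed places with Trp53. Mdm2 over Trp53, both in TPM, was 0.815, 0.802, 0.764 and 0.845 in the LPS replicates and 1.77, 1.996, 2.09 and 2.29 in the LPS + UDCA replicates. Mdm2 mRNA was thus below Trp53 mRNA in 4 of 4 libraries with LPS and above it in 4 of 4 with LPS + UDCA. This ratio was chosen after the values had been seen and was not tested. A ratio within a library does not depend on a scaling factor per library.

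**Figure D2:**
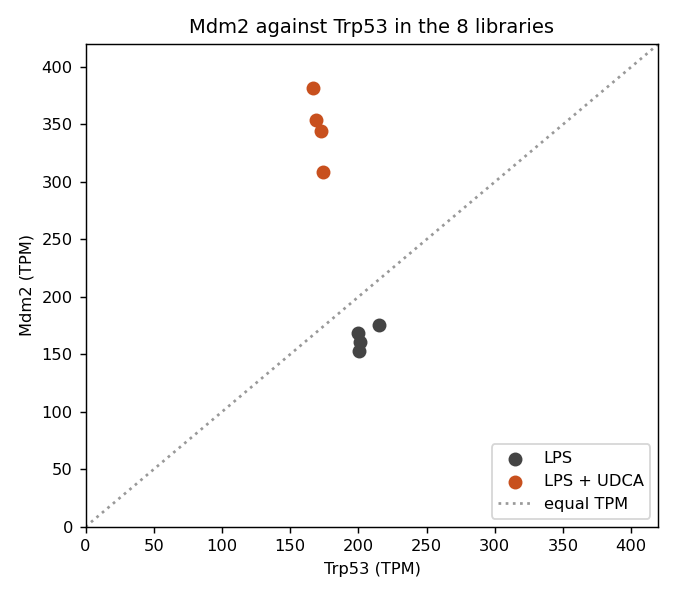
Mdm2 (vertical axis, TPM) against Trp53 (horizontal axis, TPM), with 1 point per library and a dotted line where the levels are equal. The 4 LPS libraries lie below the line, with Mdm2 between 152.99 and 175.32 TPM, and the 4 LPS + UDCA libraries lie above it, with Mdm2 between 309.02 and 381.84 TPM.

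Ccng1 (ENSMUSG00000020326, chromosome 11 from 40748552 to 40755311) encodes cyclin G1, which recruits a phosphatase to MDM2. It had 49.82, 45.84, 46.3 and 52.82 TPM with LPS and 61.43, 59.98, 65.61 and 69.34 TPM with LPS + UDCA. The groups did not overlap, although the distance between them was small beside that of Mdm2. The log2 difference was 0.39 (standard error 0.063, FDR = 0.00039 from limma).

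Btg2, Phlda3 and Sesn1 act on growth. Btg2 (ENSMUSG00000020423, chromosome 1 from 134075170 to 134079120) encodes an antiproliferative protein that binds the deadenylase complex which shortens mRNA tails. Its level was 25.09, 22.33, 22.87 and 25.85 TPM with LPS and 47.88, 49.1, 44.16 and 50.03 TPM with LPS + UDCA. All 4 LPS + UDCA libraries were above the highest LPS library, with a ratio of mean TPM of 1.99. On the log2(TPM + 1) scale the difference was 0.96 (standard error 0.062, FDR = 9.9e-07 from limma), under the 2-fold minimum, and without LPS + UDCA replicate 3 it passed that minimum, at 1.0003.

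Phlda3 (ENSMUSG00000041801, chromosome 1 from 135766119 to 135769136) encodes a small pleckstrin homology protein that competes with the kinase Akt for membrane lipids. It was at 63.13, 63.94, 57.84 and 62.04 TPM with LPS and at 137.64, 146.94, 130.74 and 118.48 TPM with LPS + UDCA. The lowest LPS + UDCA library was well above the highest LPS library. Its log2 difference was 1.096 (standard error 0.066, FDR = 6.3e-07 from limma). In the LPS libraries Phlda3 and Aen had overlapping levels, and with LPS + UDCA every Phlda3 value was above every Aen value.

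Sesn1 (ENSMUSG00000038332, chromosome 10 from 41809935 to 41908424) encodes a sestrin, which restrains the growth kinase mTORC1 when amino acids are scarce. It had 5.11, 4.89, 4.46 and 5.41 TPM with LPS and 5.58, 5.2, 6.1 and 5.95 TPM with LPS + UDCA. The groups overlapped, since LPS + UDCA replicate 2 was below LPS replicate 4. The log2 difference was 0.17 with a 95% interval from -0.017 to 0.35 (FDR = 0.091 from limma), so a rise of up to this size is within the interval and a 2-fold change is not.

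Trp53inp1, Eda2r and Aen are associated with cell death. Trp53inp1 (ENSMUSG00000028211, chromosome 4 from 11156431 to 11174379) encodes a stress-induced nuclear protein that acts in apoptosis and autophagy. It was the least abundant of the 10 mRNAs under LPS, at 2.79, 2.07, 2.36 and 2.61 TPM, and it had 9.88, 11.76, 11.91 and 13.13 TPM with LPS + UDCA. The groups were far apart. Mean TPM was 4.75-fold higher with LPS + UDCA. On the log2(TPM + 1) scale, which understates the change of a gene this low, the difference was 1.87 (standard error 0.10, FDR = 3.9e-07 from limma), at or above that of 98.9% of the genes tested. It was 2.20 with a pseudocount of 0.1 and 1.16 with a pseudocount of 5, where Eda2r, at 1.34, was the higher of the pair.

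Eda2r (ENSMUSG00000034457, chromosome X from 97333840 to 97377216) encodes a receptor of the TNF receptor superfamily that binds ectodysplasin A2. Its values were 11.71, 7.6, 8.57 and 7.64 TPM with LPS and 28.84, 30.7, 31.38 and 29 TPM with LPS + UDCA. LPS replicate 1 was the highest of its group, and the groups did not overlap. The mean rose from 8.88 ± 1.94 TPM (SD, n = 4) to 29.98 ± 1.26 TPM, a log2 difference of 1.67 (standard error 0.12, FDR = 1.8e-06 from limma).

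Aen (ENSMUSG00000030609, chromosome 7 from 78895854 to 78911209) encodes a nuclease that takes part in DNA breakdown during apoptosis. It was at 61.25, 59.08, 58.34 and 59.85 TPM with LPS and at 73.47, 69.55, 69.8 and 71.15 TPM with LPS + UDCA. The rise was small but larger than the spread, with no overlap. The log2 difference was 0.25 (standard error 0.036, FDR = 0.00020 from limma).

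Zmat3 (ENSMUSG00000027663, chromosome 3 from 32334792 to 32366014) encodes a zinc finger protein that binds RNA and influences splicing and mRNA stability. It had 27.35, 25.76, 26.35 and 24.94 TPM with LPS and 37.33, 36.97, 37.01 and 36.04 TPM with LPS + UDCA. The LPS + UDCA libraries lay within a narrow band above all LPS libraries. The log2 difference was 0.48 (standard error 0.043, FDR = 8.3e-06 from limma).

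**Figure D3:**
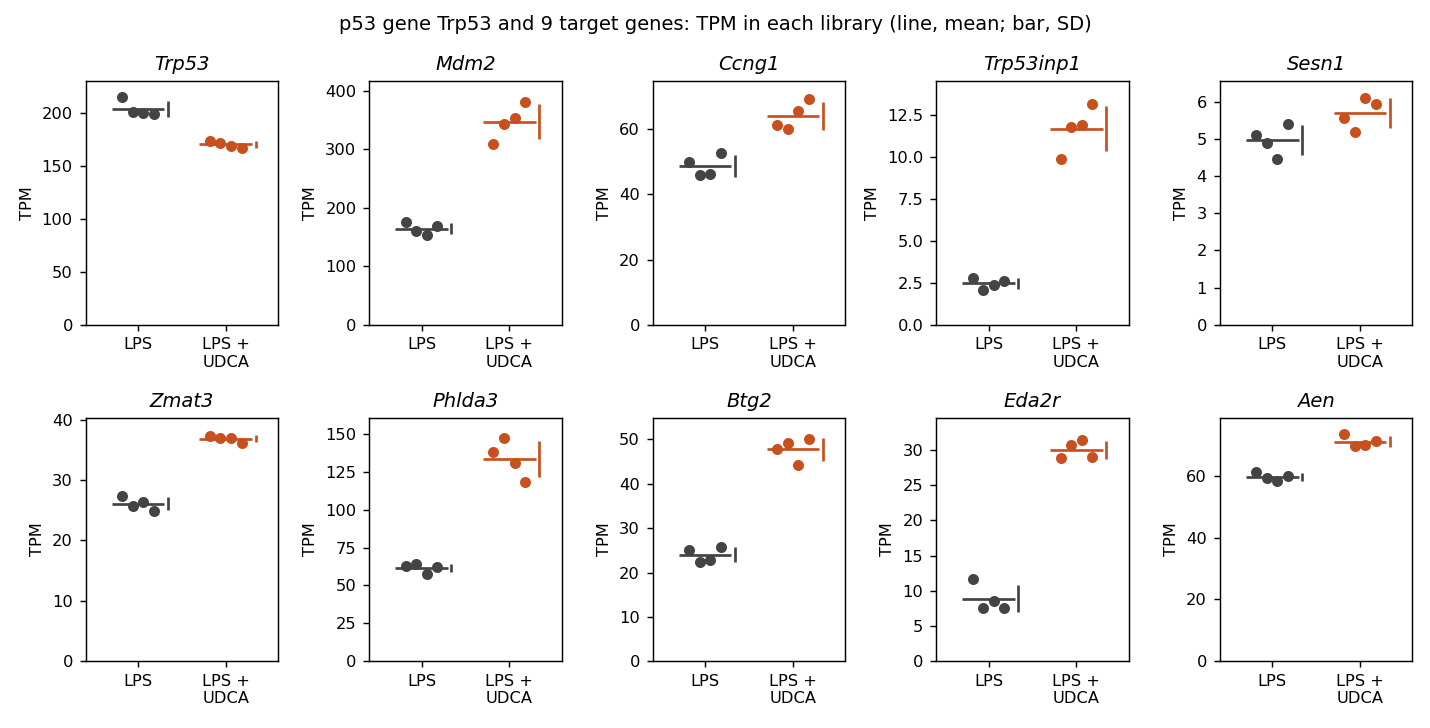
TPM of each of the 10 genes in every library (vertical axes start at 0), with LPS in grey and LPS + UDCA in orange. Lines are means and vertical bars are SD (n = 4). Trp53 is lower in all LPS + UDCA libraries, Sesn1 overlaps between the groups, and the other 8 genes are higher in all LPS + UDCA libraries.

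In an exact permutation test of each gene over the 70 arrangements of the libraries, 9 genes had a 2-sided p of 0.029, the smallest this design allows, and Sesn1 had p = 0.057. The groups did not overlap in 8 genes that were higher and 1 that was lower with LPS + UDCA, and such genes made up 37.0% (higher) and 29.9% (lower) of all genes tested. In order of mean TPM under LPS, the genes ran Trp53, Mdm2, Phlda3, Aen, Ccng1, Zmat3, Btg2, Eda2r, Sesn1 and Trp53inp1. Of the neighbours in that order, Phlda3 and Aen overlapped, as did Zmat3 and Btg2, and the others did not. With LPS + UDCA the order was Mdm2, Trp53, Phlda3, Aen, Ccng1, Btg2, Zmat3, Eda2r, Trp53inp1 and Sesn1, with no overlap between neighbours.

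Among 42 other genes known to be activated by p53, the differences went both ways. Of the 39 that were tested, 20 were higher and 10 lower at an FDR under 0.05 from limma, and 6 were higher and 2 lower with a 2-fold minimum in addition, beside the 40.2%, 32.3%, 8.71% and 8.44% of all genes given above. Their median log2 difference was 0.22, against 0.082 for all genes tested. Perp, Gls2 and Sulf2 had means under 1 TPM and were not tested.

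The highest were Abhd4, Sesn2 and Trp53cor1. Abhd4 encodes a lipase of phospholipid turnover and went from 21.8 ± 1.13 TPM (SD, n = 4) to 62.6 ± 3.65 TPM, a log2 difference of 1.48. Sesn2, which encodes the sestrin most closely tied to stress responses, went from 50.7 ± 2.84 to 139 ± 6.22 TPM (1.44), whereas its relative Sesn1 did not pass the test. Trp53cor1, a long noncoding RNA gene also known as lincRNA-p21, went from 8.36 ± 1.09 to 20.8 ± 3.71 TPM (1.21). Of its 31-base words, 41.0% also occur in other genes, so its reads may be split. Trp53cor1 overlaps 2 annotated genes on the opposite strand, whose reads cannot be told apart from its own where counting ignores strand. The other 3 past both thresholds were the DNA repair endonuclease gene Ercc5 (1.15), the thiamine transporter gene Slc19a2 (1.08) and the death receptor gene Tnfrsf10b (1.02). Slc19a2 and Tnfrsf10b were named because, with Pidd1, they had the 3 lowest log2 differences past both thresholds among genes of the list averaging 5 TPM or more.

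Of the p53 targets best known from arrest and apoptosis, Cdkn1a rose slightly, from 598 ± 12.3 TPM (SD, n = 4) to 700.4 ± 22.9 TPM, with a log2 difference of 0.23 (FDR = 0.00015 from limma). The BH3-only death genes Bbc3 (PUMA) and Pmaip1 (NOXA) rose by 0.25 and 0.54, and the death receptor gene Fas rose by 0.98. Bax, which encodes the pore-forming effector of apoptosis, fell by 0.15 on the log2 scale, from 852 ± 24.4 to 768 ± 25.2 TPM (FDR = 0.0029 from limma). Gdf15, a secreted stress cytokine, had 4.41 ± 0.224 and 4.56 ± 1.25 TPM (log2 difference 0.016, FDR = 0.92 from limma). Pidd1 and Steap3 fell by at least 2-fold on the log2(TPM + 1) scale. Pidd1, which encodes a scaffold for caspase activation, went from 7.74 ± 0.689 to 2.46 ± 0.293 TPM (-1.34). The iron reductase gene Steap3 went from 5.82 ± 0.618 to 1.91 ± 0.239 TPM (-1.23). Cdkn1a and Bax overlap other annotated genes and share 9.78% and 11.1% of their 31-base words with other genes. Ercc5, Pmaip1, Fas, Gdf15 and Steap3 were named after their values had been seen.

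Among 30 regulators and partners of p53, 27 were tested. At an FDR under 0.05 from limma, 13 were higher and 7 lower, and with the 2-fold minimum 4 were higher and 0 lower, beside the same shares of all genes. Their median log2 difference was 0.18. All 4 that rose past both thresholds act on p53 protein. Mdm4, whose product pairs with MDM2 to restrain p53, went from 8.41 ± 2.04 TPM (SD, n = 4) to 20.1 ± 4.32 TPM (log2 difference 1.17, standard error 0.18, FDR = 0.00025 from limma), and 13.8% of its 31-base words also occur in other genes. Rchy1, which encodes PIRH2, another ubiquitin ligase for p53, went from 11.2 ± 0.273 to 30.6 ± 2.04 TPM (1.37), and 19.7% of its words occur elsewhere. The acetyltransferase gene Crebbp (1.31) and the deacetylase gene Sirt1 (1.21) encode enzymes with opposite actions on p53 lysines. Mdm4, Rchy1 and Sirt1 each overlap an annotated gene on the opposite strand, whose reads cannot be told apart from theirs where counting ignores strand.

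Wrap53, which starts close to Trp53 on the opposite strand and does not overlap it in GENCODE M21, went from 12.4 ± 1.77 to 7.44 ± 0.574 TPM (log2 difference -0.66, FDR = 0.00024 from limma). Cdkn2a, whose ARF product inhibits MDM2, and the p53 relative Trp63 were listed at 0 in all 8 libraries, and Trp73 reached at most 0.16 TPM.

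Cell cycle genes that p53 and p21 can repress through the DREAM complex were lower with LPS + UDCA. All 15 in the list were lower at an FDR under 0.05 from limma (32.3% of all genes tested), 14 of them by at least 2-fold (8.44%), with a median log2 difference of -2.75. Their summed level ran from 750.3 to 798.4 TPM with LPS and from 107 to 115 TPM with LPS + UDCA. Plk1 (-4.37), Aurkb (-3.65) and Cdk1 (-3.23), which encode kinases of mitosis, had the lowest differences. Bub1 (-1.06) and Cdc25c (-1.84) were among the smallest falls past both thresholds. The phosphatase gene Cdc25a (-0.25), named after its value had been seen, was the one short of 2-fold. Whether p53 or p21 took part in this shift, and whether it bears on the p53 targets, was not tested.

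**Figure D4:**
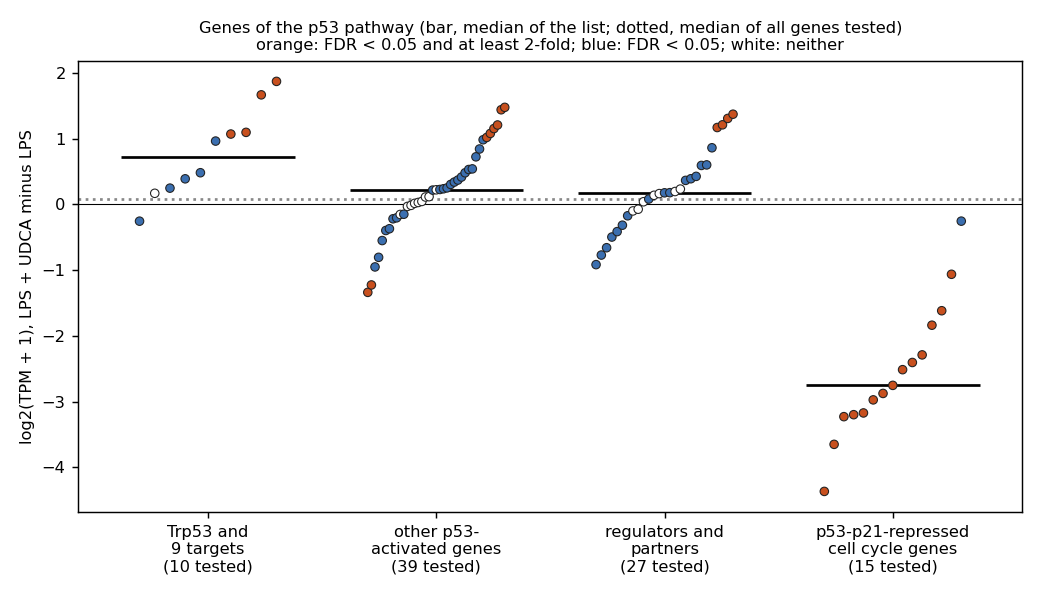
Difference in log2(TPM + 1) between LPS + UDCA and LPS (vertical axis), with 1 point per tested gene in 4 lists and bars at the list medians of 0.72, 0.22, 0.18 and -2.75. The other p53-activated genes and the regulators lie on both sides of 0. All 15 cell cycle genes of the DREAM list, labelled p53-p21-repressed, lie below it.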

How the data were processed

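RNA of J774A.1 cells was sent by the authors to a company, which prepared the libraries (TruSeq, per the labels) and sequenced them on an Illumina HiSeq instrument, and reads were analysed on that company's cloud platform. The deposited values are TPM per gene and library, with 2 decimals, a unit inferred because each column sums to nearly the total that TPM is scaled to. The submitters' processing notes name Bowtie 0.12.2, mm10 and GRCm38, and the counting program, annotation and strand setting are not given in the sources used here. TPM keeps no read number, so depth and counting error are unknown, and errors are the spread between libraries.

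Libraries were grouped by the sample labels. limma 3.58.1 in R 4.3.3 was fitted with a mean-variance trend to log2(TPM + 1) of genes averaging 1 TPM or more, without a replicate block. Thresholds were those of the study's methods, with the fold change taken here on the log2(TPM + 1) scale. Fewer genes passed them here than the study reported, in each direction. The counts depended on the pseudocount, with 1444 higher and 1232 lower at 0.1, against 1028 and 995 in the main fit. The reason for the difference from the study was not tested. The statistics section of the study gives analysis of variance with Tukey's test for the data as a whole. A limma fit was used here because the table holds normalized values for all genes. FDR is Benjamini-Hochberg over all genes tested, and FDR alone is given beside FDR with a 2-fold minimum. The procedure was tested on simulated data, where far fewer genes changed than were called here, each by more than 2-fold. That test does not bear on small differences such as that of Trp53. The 10 genes and the other lists were chosen with earlier results of these data known. Genes named from other lists were the 3 highest and 3 lowest past both thresholds among genes averaging 5 TPM or more, and a few fixed names (Cdkn1a, Mdm4, Cdkn2a, Bax, Bbc3 and Wrap53). Positions and transcript words of 31 bases come from GENCODE M21 on GRCm38, which holds 55141 of the 55487 identifiers. Promoters are from RefSeq. One gene that the rule names is not reported here. Alternatives covered scaling, pseudocount, filter, variance model, replicate block and each library left out. Tables and plots were made with Python 3.11.15, matplotlib 3.10.9 and pandas 2.3.3.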

Additional observations from a re-analysis of the deposited data

Results flagged for a closer look

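Single libraries that stood apart were looked for with Dixon's test at its 95% critical value, which compares the distance of an end library to the next one with the whole range of its group of 4. Of 54 groups of values, 3 passed it, where chance gives 2.7. For Trp53, LPS replicate 1 was highest at 215.19 TPM (ratio 0.916). For Slc19a2, LPS replicate 1 was also highest, at 26.62 TPM (ratio 0.951). For Pidd1, LPS replicate 4 was lowest at 6.71 TPM (ratio 0.909).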

How the results depend on the processing

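The 8 genes that rose and Trp53, which fell, kept their direction and an FDR under 0.05 from limma in all 18 alternatives, and Sesn1 stayed above 0.05 (0.052 to 0.40). With each library left out in turn, 8 members were higher and 1 lower at an FDR under 0.05 every time, and 4 to 5 were higher and 0 lower with the 2-fold minimum. The log2 differences then ran from -0.27 to -0.23 for Trp53, 1.02 to 1.13 for Mdm2, 0.35 to 0.43 for Ccng1, 1.82 to 1.94 for Trp53inp1, 0.13 to 0.21 for Sesn1, 0.46 to 0.50 for Zmat3, 1.05 to 1.15 for Phlda3, 0.93 to 1.0003 for Btg2, 1.61 to 1.79 for Eda2r and 0.23 to 0.26 for Aen. A pseudocount of 0.1 or 5 moved Trp53inp1 to 2.20 or 1.16, from 1.87. Leaving out libraries, 5 to 7 of the other activated genes were higher and 2 to 3 lower past both thresholds. Likewise, 4 regulators were higher and 0 lower, and 13 to 14 cell cycle genes of the DREAM list were lower.

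A pseudocount of 5 left 2 other activated genes higher and 0 lower, and 1 regulator higher, and over all genes tested it left 357 higher and 532 lower, against 1028 and 995. That pseudocount shrinks the log2 difference of low genes by construction. With a mean of at least 5 TPM, 1 other activated gene was lower, since Steap3 was no longer tested. With quantile normalization or a pseudocount of 0.1, 1 regulator was lower past both thresholds. In the main fit the lowest regulator was Chek2, at -0.92, with a ratio of mean TPM of 0.486. A smaller pseudocount shrinks such a difference less, and the reason under quantile normalization was not tested. Pairs of libraries with the same replicate number (4 pairs) had correlations of -0.035 to 0.15 between their deviations, taken across genes, and 5 of 8 libraries correlated best with their own number. Pairs with different numbers (12 pairs) had correlations of -0.145 to 0.162. These values do not settle whether the numbers pair the libraries. The main fit had no block because the study's methods use none. With the replicate block, the counts of members were 8 higher and 1 lower at an FDR under 0.05, and 4 and 0 with the 2-fold minimum, and no call on them changed. Depth is unknown, so no limit from counting could be given.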
